A study of Octopus bimaculoides with 6 samples.

Results

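The 4 transcripts described here encode the DNA methyltransferases of the octopus *Octopus bimaculoides* and UHRF1, the protein that brings the maintenance methyltransferase to DNA. They are DNMT1 (Ocbimv22034501m), UHRF1 (Ocbimv22021185m) and the 2 adjacent IDs DNMT3B (Ocbimv22010486m) and DNMT3B.1 (Ocbimv22010487m). They were chosen by name and ID from the study's list of DNA methylation factors, not by their levels, and are 4 of the 40327 targets to which RNA reads were assigned, of which 38556 have coding transcript IDs and 1771 are non-coding RNAs.

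In animals, DNA methylation is written on cytosines that precede guanines and has to be copied each time DNA is replicated. DNMT1 is the maintenance enzyme: it methylates the new strand opposite a methylated old strand. UHRF1 recognises such half-methylated sites through its SRA domain and recruits DNMT1 to them, and in vertebrates both genes are typically transcribed in dividing cells. The DNMT3 enzymes can methylate sites that carried no methyl group, TET enzymes oxidise the mark, TDG excises oxidised bases, and MBD proteins include readers of the mark.

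The data are 6 RNA libraries of 3 adults and hatchling tissue. Arm L1 was sampled in each adult: the final 1.5 cm from the female OB-9 and from the male OB-2 (the tips), and from the male OB-5 cross sections at 1.5 cm (distal), 3.5 cm (medial) and 5.5 cm (proximal) from the end. The last library is whole hatchling body at 30 dpf (days post fertilization). No animal was mutant or treated, and each arm piece mixed skin, suckers, muscle and nerve, so fewer cells that express a gene and less RNA per cell cannot be told apart. Each condition is 1 library, so no test was run, and animal, sex, position and preparation cannot be told apart where they differ together. The 95% intervals given below cover counting error only: they compare libraries, not conditions, and no molecular tags are described, so that PCR copies count as separate reads.

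Estimated counts summed to 3161353 (distal) to 9081923 (hatchling) per library. Non-coding RNAs held 39.8% (medial) to 63.5% (female tip) of the TPM (a level corrected for transcript length and depth and brought to the same total in each library). This share moves the TPM of every coding transcript, so levels are given both as deposited and as coding TPM, in which the coding targets alone make up that total. On neither scale was the typical transcript level between arm and hatchling. The median log2 ratio of coding transcripts to the hatchling was 0.79 in the female tip, 0.68 in the male tip, 0.47 distally, 0.82 medially and 0.65 proximally on deposited TPM, and 0.80, 0.61, 0.47, 0.10 and 0.13 in the same order on coding TPM. With TMM scaling (edgeR's trimmed mean, which aligns the bulk of transcripts) it was about level, at 0.11 and 0.12 in the female and male tip and 0.00 in each OB-5 section. Gene markers for the tissue were present in all 6 libraries. The 3 nerve terminal genes Synaptotagmin-1, Complexin and Piccolo summed to 246 to 708 coding TPM in the arm libraries and 349 in the hatchling, and the muscle gene Dystrophin had at least 14.7 coding TPM in every arm library and 14.4 in the hatchling.

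DNMT1, UHRF1 and the summed DNMT3B IDs were of middle to moderately high abundance among coding targets. DNMT1 had the most estimated counts, and its level placed it between the percentiles 67.2 and 73.3 of coding targets in each library. UHRF1 lay between the percentiles 45.3 and 67.2, and the 2 DNMT3B IDs, summed, between 42.8 and 59.3. DNMT1 and UHRF1 differed in how they varied: their levels in the hatchling were within counting error of each other, whereas in the arm tips the level of UHRF1 was 0.316 and 0.357 of that of DNMT1.

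DNMT1, the maintenance methyltransferase, had 6.05 TPM (5.51 to 6.63) in the female tip, 6.15 TPM (5.60 to 6.74) in the male tip, 4.46 TPM (3.88 to 5.09) distally, 5.59 TPM (5.06 to 6.17) medially and 5.45 TPM (4.95 to 5.996) proximally, against 3.22 TPM (2.95 to 3.51) in the hatchling. These values rest on 214 to 527 estimated counts, which were not whole in any library, so that some reads were divided with another target. All 5 arm libraries were above the hatchling, as were 38.6% of all targets. Among the arm libraries the tips, the medial and the proximal section followed each other within counting error, and the distal section was lower, at 0.818 (0.691 to 0.966) of the proximal one.

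On coding TPM the order within the arm was another. DNMT1 had 16.6 coding TPM (15.1 to 18.2) in the female and 16 (14.6 to 17.5) in the male tip, 12.2 (10.6 to 13.9) distally, 9.27 (8.40 to 10.2) medially and 10.4 (9.40 to 11.4) proximally, and 8.79 (8.06 to 9.58) in the hatchling. All arm libraries again exceeded the hatchling, as for 25.9% of coding targets. The tips were now highest, with the male tip 1.31 times (1.11 to 1.55) above the distal section. The distal, proximal and medial sections and the hatchling each differed from the next by less than their counting error. Those farther apart differed: distal over medial was 1.32 (1.11 to 1.56) and distal over hatchling 1.39 (1.18 to 1.63). Proximal over hatchling was 1.18 (1.03 to 1.34). The 3 libraries of the arm end lay above the medial and proximal sections, as did 31.5% of coding targets. The arm end overlapped those sections on the deposited scale, and with TMM scaling, which put 17.3% of coding targets above the hatchling in every arm library, DNMT1 overlapped in both comparisons.

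**Figure D1:**
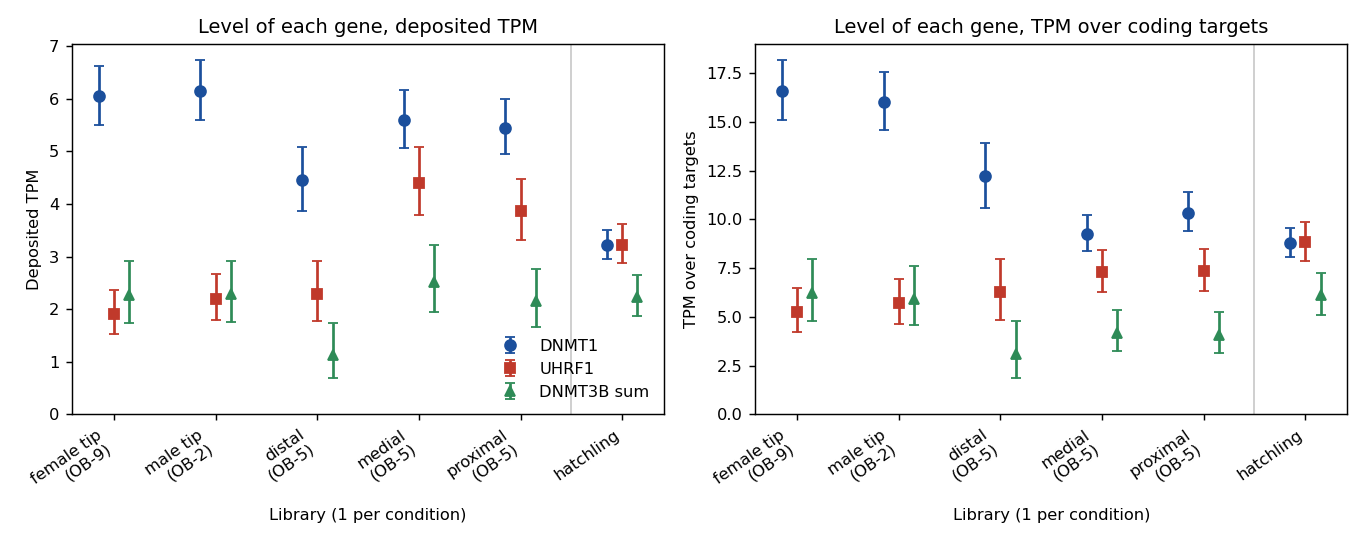
Levels of DNMT1, UHRF1 and the sum of both DNMT3B IDs in the 6 libraries, as deposited TPM (left) and as TPM over coding targets (right); points are single libraries and bars are 95% Poisson intervals of the estimated count. DNMT1 and UHRF1 coincide in the hatchling (3.22 and 3.23 TPM) and lie farthest apart in the tips (16.6 and 5.25 coding TPM in the female tip).

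UHRF1, the recruiter of DNMT1, had another order along the arm. It had 1.91 TPM (1.53 to 2.36) in the female tip, 2.20 TPM (1.79 to 2.67) in the male tip and 2.29 TPM (1.77 to 2.92) distally, then 4.40 TPM (3.79 to 5.08) medially and 3.87 TPM (3.32 to 4.48) proximally, and 3.23 TPM (2.88 to 3.61) in the hatchling. The 3 libraries of the arm end lay below the medial and proximal sections, as did 27.7% of all targets. In order of level, the medial and proximal sections and the hatchling each differed from the next by less than counting error, the distal section was at 0.709 (0.534 to 0.930) of the hatchling, and the distal section and the tips did not differ beyond it.

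On coding TPM the values of UHRF1 were 5.25 (4.204 to 6.47) in the female tip, 5.71 (4.65 to 6.95) in the male tip, 6.27 (4.84 to 7.99) distally, 7.31 (6.29 to 8.43) medially and 7.34 (6.31 to 8.495) proximally, and 8.82 (7.86 to 9.86) in the hatchling. The arm end was again below the rest of the arm, a position held by 9.21% of coding targets on this scale. UHRF1 kept it under each of the 7 scalings tried, as did 9.21% of coding targets. On coding TPM the sum of the nerve terminal markers went the other way. It was 384, 396 and 708 in the female tip, male tip and distal section, against 253 and 246 medially and proximally. On deposited TPM these sums overlapped, at 140, 152 and 259 against 152 and 129. Of the 3 genes only Piccolo, with 110, 114 and 51.3 coding TPM at the arm end against 12.4 and 21.0, was apart under all 7 scalings. Complexin was higher at the arm end under 4 of the 7, coding TPM included, and Synaptotagmin-1 overlapped under all 7. The part of nerve content in the UHRF1 values was not tested. The further order, arm end below medial and proximal and these below the hatchling, was held by UHRF1 and by 3.36% of coding targets on coding TPM, and by UHRF1 and 7.21% of them when transcripts were ranked within each library. All 5 arm libraries were below the hatchling on coding TPM, as were 15.1% of coding targets, and with TMM scaling, as were 24.0%. The steps in this order were small: no library differed from its neighbour by more than counting error on coding TPM, whereas libraries farther apart in it differed, with the female tip at 0.595 (0.464 to 0.758) and the male tip at 0.648 (0.512 to 0.815) of the hatchling. On deposited TPM the hatchling instead lay between the arm sections, and UHRF1 was 1.36 times (1.13 to 1.64) higher in the medial section than in the hatchling, against 0.829 (0.687 to 0.997) on coding TPM.

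A ratio of 2 transcripts within a library needs no scaling between libraries. The level of UHRF1 over that of DNMT1 was 0.316 (0.249 to 0.399) in the female tip, 0.357 (0.285 to 0.444) in the male tip, 0.513 (0.383 to 0.681) distally, 0.788 (0.658 to 0.9396) medially and 0.709 (0.593 to 0.846) proximally, against 1.00 (0.869 to 1.16) in the hatchling. All 5 arm libraries were thus below the hatchling, and the arm end was below the rest of the arm. Between libraries, the ratio differed beyond counting error in 11 of 15 pairs. It was 0.315 times (0.238 to 0.416) in the female tip and 0.356 times (0.272 to 0.464) in the male tip what it was in the hatchling, 0.402 times (0.298 to 0.541) and 0.453 times (0.340 to 0.604) what it was in the medial section, and the medial section itself was at 0.785 (0.624 to 0.988) of the hatchling. The 4 pairs within counting error were the tips with each other, the male tip with the distal section, the distal with the proximal section and the medial with the proximal section. Within arm L1 of OB-5, where animal and sex are shared, the distal section stood at 0.652 (0.463 to 0.917) of the medial section.

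Neither this order nor its size was rare. Of 8258 coding targets with at least 50 estimated counts in every library, 36.4% also had a lower ratio to DNMT1 in all 3 arm end libraries than in the medial and proximal sections, and 14.9% also had the hatchling on top. The ratio of UHRF1 to DNMT1 spanned 3.17-fold over the 6 libraries, and 28.0% of these targets spanned as much or more.

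**Figure D2:**
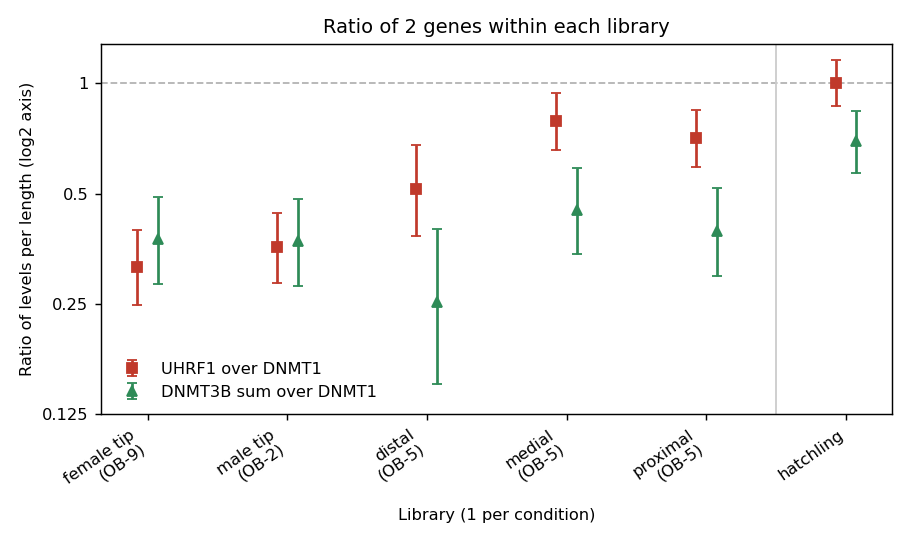
Ratio of UHRF1 to DNMT1 (squares) and of the summed DNMT3B IDs to DNMT1 (triangles) within each library, per transcript length, on a log2 axis; bars are 95% counting intervals. The UHRF1 ratio is 0.316 and 0.357 in the tips, 0.513 to 0.788 in the OB-5 sections and 1.00 in the hatchling.

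To separate the members from the shift of most transcripts, the log2 ratio of each arm library to the hatchling was set against the median of 50-count coding transcripts in the same pair. DNMT1 lay close to that median in the 3 OB-5 sections, by 0.09 (-0.14 to 0.32) distally, 0.04 (-0.15 to 0.23) medially and 0.15 (-0.03 to 0.34) proximally, and above it in the tips, by 0.34 (0.16 to 0.53) in the female and 0.49 (0.31 to 0.68) in the male. UHRF1 lay below it in all 5 arm libraries, by -1.32 (-1.68 to -0.97) in the female tip, -1.0 (-1.34 to -0.67) in the male tip, -0.87 (-1.28 to -0.48) distally, -0.31 (-0.58 to -0.04) medially and -0.35 (-0.62 to -0.08) proximally. These 5 comparisons share the hatchling library. Of the coding transcripts compared, 17.6% had a lower ratio than UHRF1 in the female tip, 24.1% in the male tip, 16.7% distally, 31.8% medially and 30.2% proximally. UHRF1 was thus in the lower part of the distribution without standing at its edge. The corresponding places of DNMT1 were 61.4%, 65.1%, 54.8%, 52.6% and 59.5%.

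The pair belong to 1 class of transcript length, since both lie between 4000 and 8000 bases. In that length class the median log2 ratio to the hatchling on coding TPM was 0.83 in the female and 0.65 in the male tip, where DNMT1 had 0.92 and 0.86 and UHRF1 had -0.75 and -0.63.

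**Figure D3:**
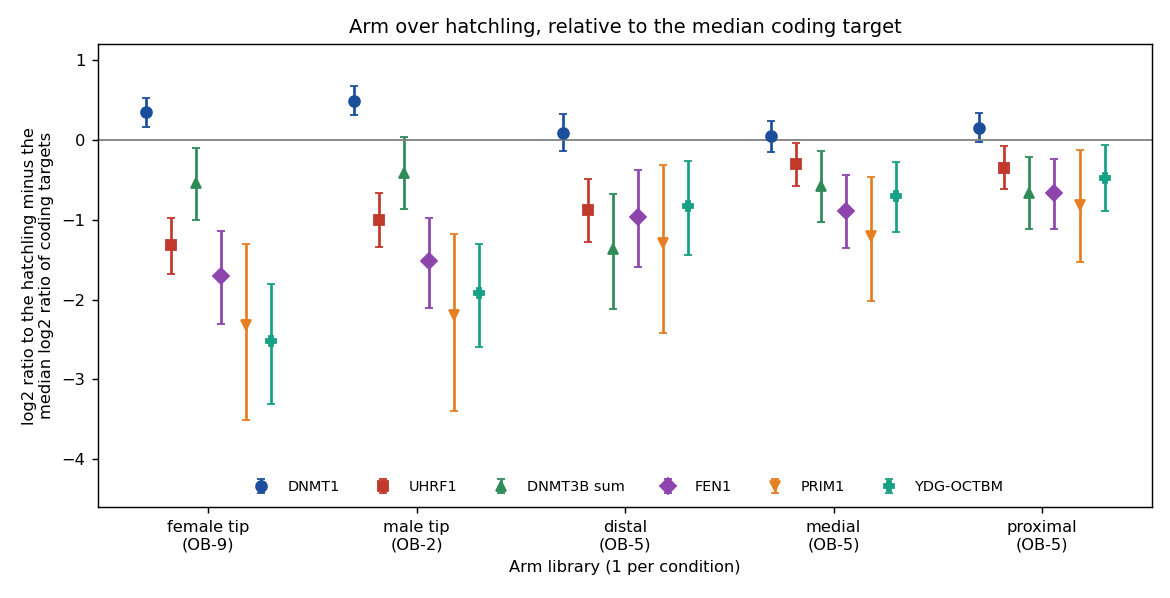
log2 ratio of each arm library to the hatchling minus the median log2 ratio of coding transcripts in that pair, for DNMT1, UHRF1, the summed DNMT3B IDs, the replication genes FEN1 and PRIM1, and YDG-OCTBM; bars are 95% counting intervals and 0 is the median coding transcript. DNMT1 is at or above 0 in each arm library, and the other genes drawn lie below it, farthest in the tips for all but the DNMT3B sum. BUB1B and SKP2, from the same list of replication and mitosis, are not drawn. In the female and male tip SKP2 lay at 0.19 and 0.21 and BUB1B at -1.55 and -0.66.

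DNMT3B and DNMT3B.1 stand for the de novo methyltransferase. Both IDs are assigned to a single gene in the study's table, their lengths are 2943 and 2946 bases, and their estimated counts can hardly be read apart. In the order DNMT3B then DNMT3B.1, the counts were 31.7 and 31.3 in the female tip, 0 and 63 in the male tip, 0 and 20 distally, 66 and 0 medially, 41.6 and 20.4 proximally, and 59.8 and 74.2 in the hatchling. In 3 libraries all counts thus went to 1 of the IDs, which was DNMT3B.1 in the male tip and in the distal section but DNMT3B in the medial section of the same arm. A 0 that comes from dividing shared reads sets no upper limit for that ID, since any of the 63, 20 and 66 counts could belong to it. The 2 counts were not whole in the other libraries, while their sum was whole in 6 of 6 (within 0.001 counts), so that these 2 IDs shared reads with each other and, as far as the counts show, with no other target. The sum is therefore what is compared, and wherever a single ID enters the counts over the list of methylation factors it is named as unresolved.

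**Figure D4:**
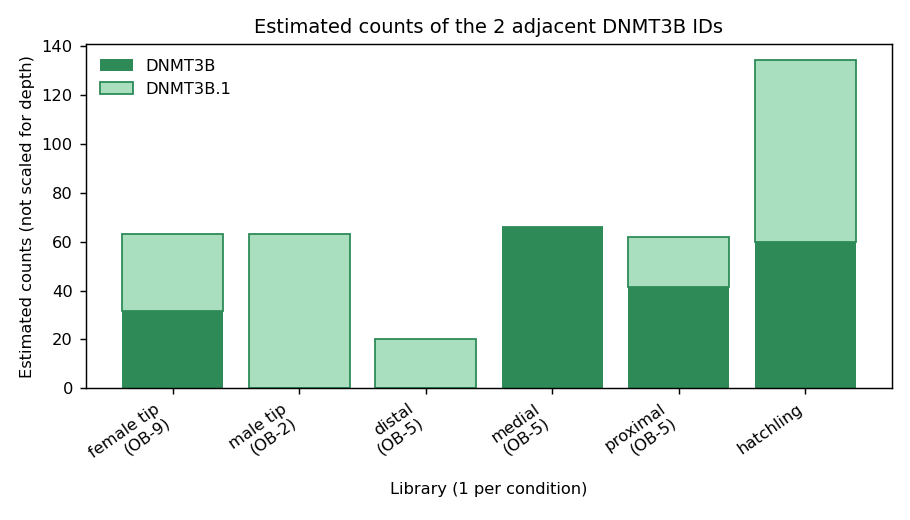
Estimated counts of DNMT3B (dark) and DNMT3B.1 (light) in each library, stacked and not scaled for depth. A single ID holds all counts in the male tip, the distal and the medial section, while both have counts in the other 3 libraries; the sums are 63, 63, 20, 66, 62 and 134.

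The DNMT3B sum was 2.27 TPM (1.75 to 2.91) in the female tip, 2.28 TPM (1.75 to 2.92) in the male tip, 1.13 TPM (0.690 to 1.74) distally, 2.53 TPM (1.95 to 3.21) medially and 2.16 TPM (1.65 to 2.76) proximally, against 2.24 TPM (1.88 to 2.65) in the hatchling. The distal section stood apart, from 20 counts: the other 5 followed each other within counting error, and the distal section was at 0.524 (0.300 to 0.879) of the proximal one. On coding TPM the distal section was again lowest, with 3.09 (1.89 to 4.77), but not beyond the counting error of the proximal section, which had 4.09 (3.14 to 5.25). The medial section then had 4.19 (3.24 to 5.33), the female tip 6.23 (4.79 to 7.97), the male tip 5.94 (4.56 to 7.60) and the hatchling 6.11 (5.12 to 7.24). Both tips were 2.01 and 2.02 times the distal section on deposited TPM (1.201 to 3.51 for the female and 1.21 to 3.53 for the male).

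Relative to DNMT1 in the same library, the DNMT3B sum was lower in every arm library than in the hatchling: 0.375 (0.284 to 0.489) in the female tip, 0.371 (0.281 to 0.484) in the male tip, 0.253 (0.151 to 0.401) distally, 0.452 (0.343 to 0.588) medially and 0.395 (0.298 to 0.517) proximally, against 0.695 (0.571 to 0.842) in the hatchling. All 5 differences from the hatchling exceeded counting error. Among the arm libraries only the distal and medial sections differed beyond it, at 0.560 (0.314 to 0.969) distal over medial. Relative to UHRF1 the DNMT3B sum was 1.19 (0.844 to 1.66) and 1.04 (0.746 to 1.44) in the female and male tip, 0.493 (0.283 to 0.824) distally, 0.574 (0.427 to 0.764) medially and 0.557 (0.411 to 0.748) proximally, and 0.693 (0.561 to 0.851) in the hatchling. In the tips these levels did not differ beyond counting error, and elsewhere the DNMT3B sum was the lower.

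Between the tips, the female and the male animal differed in none of the 3 genes beyond counting error. The ratio, female over male on deposited TPM, was 0.985 (0.863 to 1.12) for DNMT1, 0.872 (0.647 to 1.17) for UHRF1 and 0.996 (0.691 to 1.43) for the DNMT3B sum. The intervals of UHRF1 and the DNMT3B sum are wide and do not show that the levels were equal. Sex and animal cannot be told apart here. The distal section of OB-5, which was collected at 1.5 cm where the tips end, had less DNMT1 than either tip (female tip over distal 1.36, 1.15 to 1.60, and male tip over distal 1.38, 1.17 to 1.63, on deposited TPM), while UHRF1 differed within counting error (0.836, 0.599 to 1.17, and 0.958, 0.694 to 1.33). The tips and the section come from different animals.

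The list of DNA methylation factors holds 12 transcripts, the 4 members and 8 others. On deposited TPM 8 of the 12 were higher in all 5 arm libraries than in the hatchling (38.6% of all targets) and 0 were lower in all 5 (7.78%), with 4 overlapping. Neither DNMT3B ID was among the 8. On coding TPM 6 were higher (25.9% of coding targets), 2 lower (15.1%) and 4 overlapping, and with TMM scaling 3 were higher (17.3%), 2 lower (24.0%) and 7 overlapping. The 3 that stayed above the hatchling under each of the 7 scalings, as 17.2% of coding targets did, were MBD5, MBD5.1 and TET1. MBD5.1, a relative of the methyl-CpG-binding proteins, had 30.0, 21.8, 17.7, 11.3 and 13.8 coding TPM in the female tip, male tip, distal, medial and proximal libraries and 8.80 in the hatchling. TET1, a demethylation enzyme by name, had 19.6, 19.8, 18.8, 10.3 and 13.6 coding TPM in the arm libraries and 7.11 in the hatchling. MBD5, from only 24 to 52 counts, had 63.0, 58.0, 46.4, 28.7 and 33.0 coding TPM in the arm libraries and 19.0 in the hatchling. None of DNMT1, UHRF1 and the DNMT3B sum was among them.

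By the 2-fold rule on log2(TPM + 1), applied to the 11 or 12 listed transcripts that reached 1 TPM in a library of the pair, the list had 3 transcripts higher in the female tip than in the hatchling (MBD5, MBD5.1 and TET1), 4 in the male tip (these and TDG), 2 in the distal (MBD5 and TET1), 1 in the medial (MBD5) and 2 in the proximal section (MBD5 and TET1). The transcripts at least 2-fold higher among all targets compared were 32.4%, 30.4%, 16.5%, 26.3% and 20.8% in the same order. The list had 1 lower, DNMT3B.1 in the medial section, beside 11.3%, 12.7%, 11.0%, 6.66% and 7.23% of all targets. That call rests on the unresolved split, which gave this ID 0 of 66 counts, and the DNMT3B sum in the medial section was 1.13 times (0.827 to 1.53) that in the hatchling. DNMT1 and UHRF1 reached 2-fold in none of these pairs. The median log2 ratio of the list was 0.48, 0.76, 0.37, 0.66 and 0.56, beside 0.60, 0.51, 0.33, 0.62 and 0.49 over all targets compared. Against medial and proximal, the arm end held 2 transcripts of the list higher (TDG and the unresolved DNMT3B.1, beside 11.8% of all targets) and 4 lower (UHRF1, MBD2, MBD4 and the unresolved DNMT3B, beside 27.7%) on deposited TPM. On coding TPM 7 were higher (DNMT3B.1 included, beside 31.5% of coding targets) and 1, UHRF1, was lower (beside 9.21%). TDG was higher at the arm end under each of the 7 scalings, as 11.3% of coding targets were, with 8.26 coding TPM in the female tip, 12.5 in the male tip and 9.01 in the distal section, against 4.21 medially and 5.56 proximally. On deposited TPM the gap was narrow, with 3.01 in the female tip, 4.81 in the male tip and 3.29 distally, against 2.54 medially and 2.93 proximally, and with TMM scaling over all targets the female tip had 2.67 against 2.65 proximally. These values rest on 21.7 to 47.7 counts in the arm libraries, which were not whole. The other transcript that was higher under all 7 was DNMT3B.1, whose own value is not resolved from that of DNMT3B.

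TET2 kept pace with DNMT1. The ratio of TET2 to DNMT1 was 1.60 in the female tip, 1.80 in the male tip, 1.59 distally, 1.76 medially and 1.55 proximally, against 1.79 in the hatchling, and it differed beyond counting error in 0 of 15 pairs of libraries. The highest of these ratios was 1.16 times the lowest, and 0.315% of 8258 coding targets spanned as little or less against DNMT1. TET2 rested on 241 to 657 counts, all whole. The same span was 1.81 for MBD5.1, 1.91 for TET1 and 3.17 for UHRF1. The 8258 targets needed only 50 counts in every library. Fewer counts widen a span through counting error, and the share of 0.315% was not adjusted for this. Of the listed factors outside the members, only TET2 was compared with DNMT1 over all 15 pairs.

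The 4 transcripts of a list of DNA replication and mitosis were set beside the members. Their names come from sequence similarity and are putative. PRIM1, a subunit of the primase that starts new DNA strands, had 1.97 and 1.86 coding TPM in the female and male tip, 3.52 distally, 2.93 medially and 3.97 proximally, and 6.60 in the hatchling, from 9 to 62 counts. FEN1, the nuclease that trims the flaps between Okazaki fragments, had 6.76, 6.66, 9.87, 8.18 and 9.83 coding TPM in the arm libraries and 14.8 in the hatchling. BUB1B, a mitotic checkpoint kinase, had 3.90, 6.29, 3.55, 2.71 and 3.25 coding TPM in the arm libraries and 7.69 in the hatchling. All 5 arm libraries were below the hatchling for these 3 genes under each of the 7 scalings, as for 8.44% of coding targets. On deposited TPM the gap to the highest arm library was narrow, with overlapping counting intervals. FEN1 had 5.18 proximally against 5.41 in the hatchling, PRIM1 2.09 proximally against 2.42, and BUB1B 2.41 in the male tip against 2.82. SKP2, a ubiquitin ligase subunit of the cell cycle, had 9.69, 8.56, 6.18, 6.72 and 5.64 coding TPM in the arm libraries and 5.70 in the hatchling, which did not follow the other 3. DNMT1 was above the hatchling in all arm libraries on this scale, and UHRF1 below it in all.

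Within libraries, the 4 transcripts did not follow the members in 1 way. The ratio of UHRF1 to FEN1 differed beyond counting error in 1 of 15 pairs of libraries and that of UHRF1 to PRIM1 in 2 of 15, whereas FEN1 over DNMT1 differed in 11 of 15 and PRIM1 over DNMT1 in 9 of 15. PRIM1 and FEN1 have fewer counts than DNMT1 and UHRF1, so that their intervals are wide, and this also limits how many pairs can differ. SKP2 went with DNMT1 instead: SKP2 over DNMT1 differed in 1 of 15 pairs and UHRF1 over SKP2 in 8 of 15. BUB1B followed neither, with BUB1B over DNMT1 differing in 6 of 15 pairs and UHRF1 over BUB1B in 8 of 15. The counts of FEN1, BUB1B and SKP2 were not whole, so each shares reads with another target. FEN1 over DNMT1 in the female tip was 0.242 (0.157 to 0.366) of its value in the hatchling, below the 0.315 of UHRF1 over DNMT1. YDG-OCTBM, an octopus transcript that the study describes as encoding a domain similar to the SRA domain of UHRF1, had 1.64 and 2.16 coding TPM in the female and male tip, 4.62 distally, 3.96 medially, 4.81 proximally and 6.31 in the hatchling. Both tips were thus below the other 4 libraries, and UHRF1 over YDG-OCTBM was 2.29 times (1.30 to 4.19) in the female tip what it was in the hatchling.

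**Figure D5:**
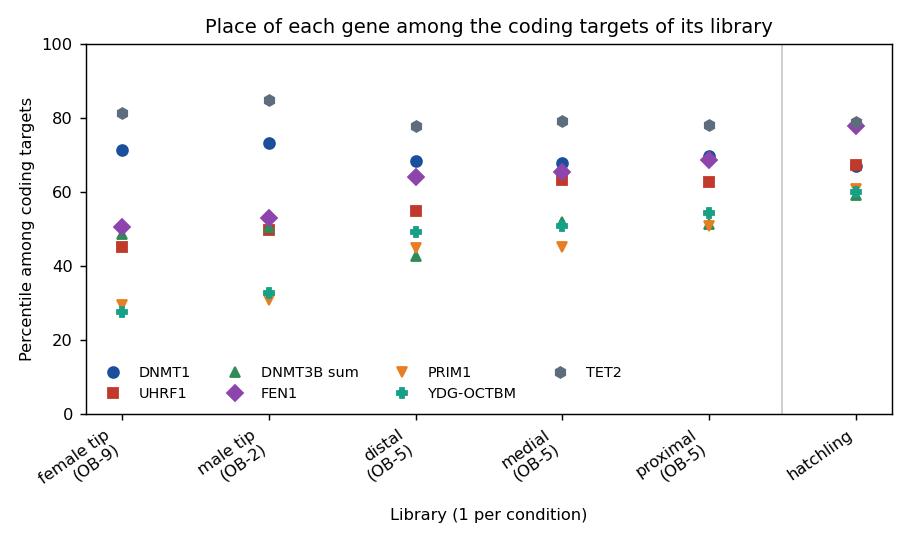
Percentile of each gene's level among the coding targets of the same library, with no scaling between libraries; each point is 1 library. DNMT1 stays between 67.2 and 73.3 and TET2 between 77.9 and 84.8, while UHRF1, FEN1, PRIM1 and YDG-OCTBM are lowest in the tips and highest in the hatchling. BUB1B and SKP2 are not drawn. SKP2 was at 58.8 in each tip and 57.8 in the hatchling, and BUB1B at 39.7 and 51.7 in the female and male tip and 64.3 in the hatchling.

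Over the 6 libraries, 3 of which are sections of 1 arm, the patterns were described by Pearson's r of log2(coding TPM + 1), with no test. UHRF1 had r = 0.91 with PRIM1, 0.88 with FEN1 and 0.91 with YDG-OCTBM, and r = -0.95 with DNMT1. The other transcripts of the replication and mitosis list did not share this, with r = 0.21 for BUB1B and -0.85 for SKP2, which had r = 0.88 with DNMT1. The r of UHRF1 with SKP2 changed sign with the scaling (0.15 on deposited TPM), and that of DNMT1 with SKP2 was 0.38 with TMM. For UHRF1, r with PRIM1, FEN1 and YDG-OCTBM lay between 0.82 and 0.95 under the 7 scalings. Its r with DNMT1 was negative under each, from -0.95 to -0.19. Without the hatchling, over 5 libraries on coding TPM, UHRF1 had r = 0.80 with PRIM1, 0.72 with FEN1 and 0.87 with YDG-OCTBM. Its r with BUB1B was then -0.67, so that these values depend in part on the single hatchling library. Of the 110 listed epigenetic factors with at least 1 coding TPM in every library, 53 had r of at least 0.9 with DNMT1, led by the histone methyltransferase SETD2 (0.998), SETMAR.18 (0.995) and KMT2C.2 (0.991). Of all 21700 such coding targets, 19.98% had an r this high with DNMT1, so the likeness is a common one on this scale. With UHRF1, 0 of the 110 reached 0.9 and 44 were at -0.9 or below, beside 3.19% and 16.2% of coding targets. On deposited TPM these counts were 2 and 1 of 99, beside 7.49% and 1.25%, so the count of 44 belongs to the coding scale. The nearest were MBD2.1 (0.77), KAT8.3 (0.63) and SETMAR.20 (0.63). MBD2.1 rests on 4 to 28 counts that are not whole, while its sum with MBD2 is whole in 6 of 6 libraries. With the deposited TPM other factors led both lists except SETD2, KAT8.3 and SETMAR.20.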

How the data were processed

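The members and lists were chosen with earlier results of these data known. Per the study's methods and the labels, ribosomal RNA was removed, reads were trimmed with Trimmomatic 0.36 (Fastp was also applied to the hatchling reads only), checked with FastQC 0.11.5 and assigned to annotated transcripts with Kallisto, whose version is not given in the sources used here. The deposited files hold, for each target, a length, an effective length, an estimated count and a TPM value, which the authors computed from the estimated count and effective length with bias correction. Reads that match several targets are divided among them. Here, TPM was rescaled over coding targets, and estimated counts, rounded to whole numbers, gave TMM factors (edgeR 4.0.16, R 4.3.3). No model was fitted. Levels carry exact Poisson intervals, ratios Clopper-Pearson intervals of 2 counts, and ratios of ratios the exact conditional interval of 4 counts, at 95% and on rounded counts. List counts used log2(TPM + 1), a minimum of 1 TPM in either library and 2-fold. Ranks, the comparison with the median transcript (at least 50 counts over the pair) and ratios of ratios were chosen after seeing the data. Named transcripts were the members, the other DNA methylation factors, YDG-OCTBM, the 4 replication and mitosis transcripts and the 3 epigenetic factors most like DNMT1 and UHRF1. The study pairs the members with the gene symbols LOC106877272 (DNMT1), LOC106874972 (UHRF1) and LOC106869540 (both DNMT3B IDs). RefSeq for assembly ASM119413v2 holds these genes and lists the study's protein for DNMT1 and for UHRF1. It lists 0 of 1 protein given for DNMT3B and 0 of 5 for DNMT3B.1, so that pairing was not checked by protein. The intervals and the counting of 2-fold differences were tried on simulated counts that held counting error only. Shared reads, PCR copies and differences between animals were not simulated, so that trial does not cover them. Python 3.11.15, numpy 2.4.6, pandas 2.3.3, scipy 1.17.1 and matplotlib 3.10.9 were used.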

Additional observations from a re-analysis of the deposited data

How the results depend on the processing

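No paired analysis was possible because each group is 1 library and all carry the replicate number 1. The ratios of UHRF1 to DNMT1 within a library stayed within their counting intervals with annotated lengths. Where the hatchling stood relative to the arm moved with the scaling. Of 198 recomputed ratios between 2 libraries for 3 genes, 141 stayed within counting error of the deposited TPM, 43 moved beyond it and 14 turned round, and the cause was not tested.

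For DNMT1 these were medial over hatchling (0.986 with TMM over all targets and 0.984 over coding targets), distal over medial (1.32 on coding TPM, 1.02 with each TMM, 1.03 without the 10 most abundant targets, 1.16 without effective lengths under 300 bases) and distal over proximal (1.18 on coding TPM, 1.08 without short targets). So DNMT1 in the lowest arm library over the hatchling fell under 1 with TMM, and the lowest arm end library over the higher of the medial and proximal sections went above 1 on coding TPM (1.18) and without short targets (1.08), and without the distal section (1.08, with a range of 0.799 to 1.08 over the libraries left out). For UHRF1, medial over hatchling was 0.829 on coding TPM, 0.774 and 0.772 with TMM, 0.948 without the 10 most abundant and 0.871 without short targets, and the highest arm library over the hatchling was 0.833 on coding TPM.

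The highest library over the lowest was 1.91 for DNMT1 (1.31 and 1.32 with TMM) and 2.30 for UHRF1 (1.68 on coding TPM, 1.76 without the 10 most abundant, 1.68 without short targets). The median arm library over the hatchling was 1.74 for DNMT1 (1.39 on coding TPM, 1.08 with each TMM, 1.24, 1.29 and 1.51 without the 10 most abundant, without short targets and with annotated lengths), 0.709 for UHRF1 (0.513 and 0.514 with TMM, and 0.695 to 0.953 leaving out each arm library, since it lies between the arm end and the rest) and 1.02 for the DNMT3B sum (0.686 on coding TPM, 0.635 with TMM, 0.721 without short targets). 

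Of the 12 listed transcripts, 8 were above the hatchling in all arm libraries (3 with each TMM) and 0 below (2 under each of 5 scalings, 1 with annotated lengths, and 0 to 1 leaving out each arm library). At the arm end 2 were higher (7 on coding TPM and without short targets, 5 without the 10 most abundant, 4 with TMM and annotated lengths, and 2 to 5 leaving out each library) and 4 lower (1 on coding TPM and without short targets, 2 without the 10 most abundant). Summed over the 5 arm libraries, 2-fold calls against the hatchling were 12 higher (1 with each TMM, 30 at 1.5-fold, 0 at 4-fold) and 1 lower (5 on coding TPM, without the 10 most abundant and with annotated lengths, 6 with TMM and without short targets, 3 at a pseudocount of 0.1 and at 1.5-fold, 0 at 4-fold). The r of UHRF1 with DNMT1 was -0.95 (-0.19 on deposited TPM, -0.68 with TMM, -0.45 with annotated lengths).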

Other observations

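DNMT1 was the only member whose estimated counts were whole in 0 of 6 libraries. UHRF1 had whole counts in 6 of 6, so that no division of its reads was seen. Whole counts do not show that no reads were shared, since those of the DNMT3B IDs were also whole where 1 ID held them all. The effective length of DNMT1, 7667 to 7920 bases, exceeded its annotated length of 7643 bases in every library, whereas that of UHRF1, 4547 to 4692 bases, was shorter than its 4855 bases. With annotated lengths in place of effective ones, each of the 6 ratios of UHRF1 to DNMT1 stayed within its counting interval.

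MBD4, a methyl-CpG-binding glycosylase in mammals, had another order of values among the factors. Its ratio to DNMT1 was 0.568 in the female tip, 0.456 in the male tip, 0.897 distally, 0.934 medially and 1.01 proximally, against 0.719 in the hatchling. The values of the tips were thus below and those of the OB-5 sections above that of the hatchling. No counting interval was formed for this ratio, so which of these differences exceed counting error is not known. Its counts, 44 to 99, were whole in 6 of 6 libraries.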
